A study of Mus musculus with 9 samples.

Results

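The messenger RNAs of translation initiation factors (Eif1 to Eif6) and elongation factors (Eef) were examined in mature mouse eggs. Members were the protein-coding rows of the deposited tables whose gene name begins with Eif1 to Eif6 or with Eef, which gave 67 of the 30153 genes listed, 53 Eif and 14 Eef genes. All 67 were listed in both tables that include the group GFP High, and 65 in the table of GFP Low against RFP. The rule used names and annotation and no measured value, though it was set with earlier results of these data known. The oocyte cap-binding factor Eif4e1b, one of the 53 Eif genes, is described separately as well, and 9 protein-coding genes without an Eif name that the deposited annotation describes as eIF1A copies were kept outside the members.

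The libraries were made from pooled metaphase II (MII) oocytes, the ovulated eggs arrested at the second meiotic division. All donors were 4-week-old females of mixed background carrying Sycp3CreERT2/+, a tamoxifen-inducible Cre driven from the meiotic gene Sycp3, and Rosa26nT-nG/+, a reporter that switches from nuclear tdTomato to nuclear GFP after Cre recombination. They received 5 IU PMSG and, 48 h later, 5 IU hCG, and eggs were recovered 13 h after hCG. Eggs were picked by eye on fluorescence into GFP High (15 to 16 oocytes a pool), GFP Low (49 to 57) and RFP (87 to 100), with 3 libraries a group. Pool size thus follows the group, and pool size and group cannot be told apart. When tamoxifen was given is not used here, and nothing in the labels says whether pools came from separate animals, so p-values measure the spread between these pools only.

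Initiation factors assemble the small ribosomal subunit on the capped 5′ end of an mRNA, find the start codon and release it to the large subunit, after which elongation factors deliver aminoacyl-tRNAs and move the ribosome along. In fully grown oocytes transcription is silent, and protein output is set by which stored mRNAs are recruited. Masking of stored mRNAs is known to run through eIF4E-type cap-binding proteins and their partners, and recruitment through lengthening of the poly(A) tail at sites bound by CPEB1.

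The 3′ ends of 5 abundant members and of Eif1ax, the main eIF1A gene, are shown because poly-A capture reads an mRNA through its tail. The 30 bases around the polyadenylation signal (capitals, AATAAA or ATTAAA) are printed 5′ to 3′ on the transcript strand, from GENCODE M21 transcripts on GRCm38, at chr9:120495278-120495307 (plus strand) for Eif1b, chr13:54788422-54788451 (plus) for Eif4e1b, chr9:78478458-78478487 (minus) for Eef1a1, chr11:3244542-3244571 (plus) for Eif4enif1 and chr1:38055547-38055576 (plus) for Eif5b. For Eif1ax, at chrX:159389887-159389916 (plus), the capitals mark TTTTAT, the consensus element bound by CPEB1. Neither AATAAA nor ATTAAA occurred in the last 100 bases of its transcript.
Eif1b: ttgcggcttaacAATAAAaagaaagtgtgc
Eif4e1b: ggccctttctgtatctaAATAAAcacttct
Eef1a1: aattttgagaccATTAAAacaagtttaatg
Eif4enif1: ttcttttggtttATTAAAagttacatatgc
Eif5b: ttgatgctcagaAATAAAagtttcaggaac
Eif1ax: attcagtggatgTTTTATgctgcacaaata

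In the last 100 transcript bases, searched on the transcript strand with overlaps allowed, AATAAA occurred in 38 of the 62 members whose annotated 3′ end could be scanned (61.3%) and in 65.2% of 16879 protein-coding genes. A CPEB1 element (TTTTAT or TTTTAAT) occurred in 7 of the 62 (11.3%) and in 18.4% of protein-coding genes. Among genes at 20 CPM (counts scaled to library size) or more these shares were 8.7% (4 of 46 members) and 21.8% (of 5539 genes). The 7 members were Eef1a1, Eef1akmt2, Eef2kmt, Eif1a, Eif1ax, Eif3j2 and Eif4e3. Both an element and AATAAA occurred in 2 of the 62 (3.23%) and in 12.1% of protein-coding genes. These matches are a description of annotated ends, and no tail length was measured.

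Aligned coding stretches show how far paralogs can be told apart by their reads. Each pair below is the 60-base window of the aligned coding sequences (GENCODE M21) with the most identities, and capitals mark the differing bases.
Eif4e1b: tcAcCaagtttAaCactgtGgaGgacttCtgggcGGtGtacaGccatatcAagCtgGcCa
Eif4e: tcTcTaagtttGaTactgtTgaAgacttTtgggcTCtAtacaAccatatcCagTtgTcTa
Eif1b: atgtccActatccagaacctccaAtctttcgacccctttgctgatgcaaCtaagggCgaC
Eif1: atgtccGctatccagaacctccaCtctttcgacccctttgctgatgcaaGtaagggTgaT
Gm5039: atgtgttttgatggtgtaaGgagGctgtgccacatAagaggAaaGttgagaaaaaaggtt
Eif1ax: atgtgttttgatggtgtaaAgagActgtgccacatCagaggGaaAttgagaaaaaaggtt
Over the aligned coding bases, identity was 65.6% for Eif4e1b and Eif4e, 81.1% for Eif1b and Eif1, 85.6% for Eif1a and Eif1ax, and 85.0% for Gm5039 and Eif1ax. Of all 50-base words in their transcripts, Eif1ax shared 0% with any other annotated gene, Eif1b 0.811% and Eif4e1b 5.39%. For 22 of the 67 members no 50-base word was shared, while for 5 (Eif3j2, Eif4a1, Eef1g, Eef1a1 and Eif3j1) over 50% were. Values for these 5 are uncertain to that extent. Over 20% were shared for 14 members, these 5 included, and Eif2s2 (27.8%) was another. For 8 members over 10% of exon bases overlapped another gene. Among them were Eif3d (43.3%), Eif5b (16.8%), Eif1ad (15.3%) and Eif1b (12.7%), each overlapping a gene on the opposite strand. Whether such overlap affected their counts was not tested.

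Library totals ran from 19381677 to 27746256 counts, and the members took 1.1% to 1.2% of them. Each library held 61 to 64 members at 1 CPM or more. All 12 oocyte markers, among them Gdf9 and Zp3, were counted in every library. Their median log2 fold change was 0.16 for GFP High against RFP (10 of 12 above 0, 4 with an unadjusted p under 0.05, all higher in GFP High) and 0.14 for GFP High against GFP Low (11 of 12 above 0, again 4, all higher), with 0 called in edgeR. For GFP Low against RFP it was -0.02, with 5 of 12 above 0. The part of this shift in the members' values was not tested. The 16 markers of cumulus and granulosa cells summed to 119 to 192 CPM in RFP, 129 to 147 in GFP Low and 104 to 199 in GFP High, with 2 to 12 of the 16 at 0, so these ranges overlapped between groups. The sums hide uneven markers within each group. Ptx3 peaked in RFP 2 (9.76 CPM), GFP Low 1 (6.29) and GFP High 1 (5.84), and reached at most 1.59 in any other library. Inha peaked in the same libraries (6.36, 5.57 and 3.23 CPM, in that order) and reached at most 0.455 in any other. GFP High 2, with 12 of the 16 at 0, Ptx3 and Inha among them, owed its sum to other markers. The part of such RNA in the members' values was not tested. In such pools, fewer cells of a type and less RNA per cell cannot be told apart.

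Measured per length, as the authors' FPKM (fragments scaled to gene length and library size), the members spanned a wide range. The deposited gene length can far exceed that of a transcript. For Eif4e2 it is 7497 bases, while the annotated transcript used for read sharing held 1758 different 50-base words. The order of genes below holds for the deposited lengths only, and transcript lengths were not tried. Their median over the 9 libraries was 21.8 FPKM, against 0.835 FPKM for the 18483 protein-coding genes of the tables, and 10 members exceeded 100 FPKM while 16 lay under 5. The highest were Eif1b at 294.2 ± 26.8 FPKM (mean ± SD over the 9 libraries here and for levels below), Eif4e1b at 280.4 ± 11.6 and Eef1a1 at 253.5 ± 9.92. Eif1b and Eif4e1b overlapped in their ranges (254.3 to 343.0 and 264.0 to 300.1 FPKM), so their order is not resolved. In each of the 9 libraries all 3 exceeded Eif4enif1 (150.6 to 168.7 FPKM).

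**Figure D1:**
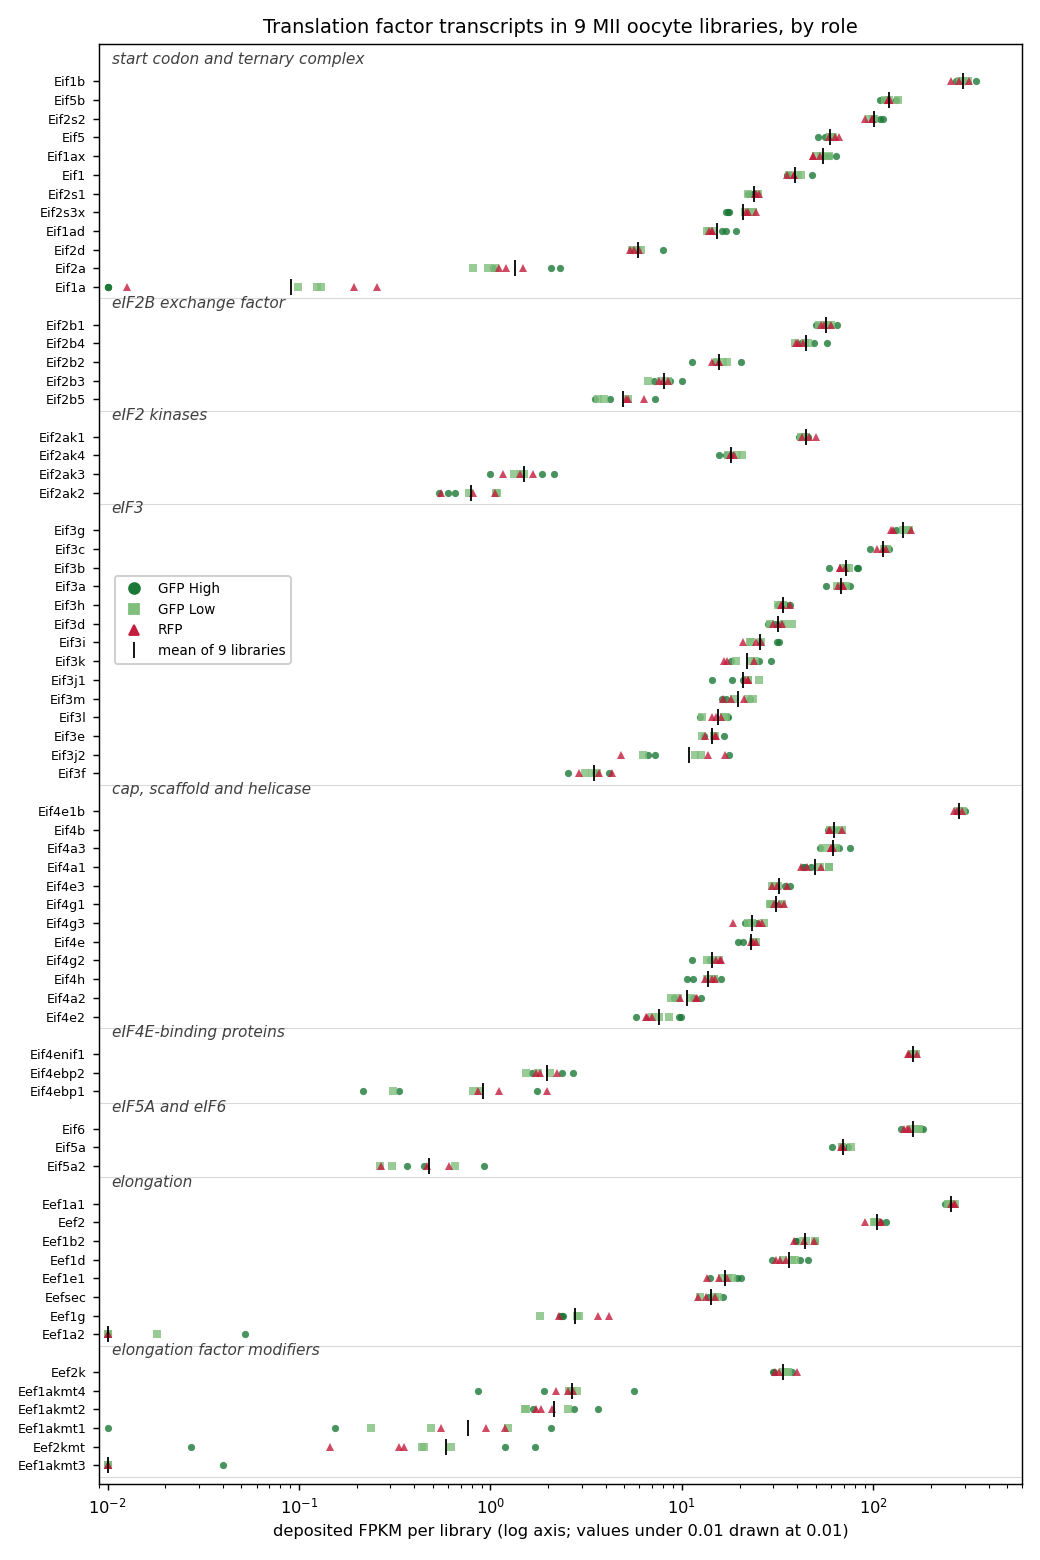
Deposited FPKM (log axis) of the 67 members, grouped by role, with 1 point per library coloured by group and a bar at the mean of the 9 libraries. Levels run from Eif1b at 294.2 FPKM to Eef1akmt3, which was counted in 1 library, and differ widely within most roles.

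Among the 12 factors of start codon choice and the ternary complex, which brings the initiator tRNA, levels were uneven within complexes. Eif5b, the GTPase that joins the large subunit, stood at 120.6 ± 8.05 FPKM and was the most abundant member by counts, at 1188 CPM. Of the 3 subunits of eIF2, the beta subunit Eif2s2 had 100.2 ± 6.44 FPKM, the alpha subunit Eif2s1 23.9 ± 1.18 and the X-linked gamma subunit Eif2s3x 20.9 ± 2.82. Eif2s2 was above both others in every library, while Eif2s1 and Eif2s3x overlapped. Eif1, the start codon fidelity factor, had 38.9 ± 4.10 FPKM, well below its paralog Eif1b. Eif2a, an alternative initiator tRNA carrier that is no subunit of eIF2, had 1.34 ± 0.52 FPKM.

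eIF1A, which acts with eIF1 in scanning for the start codon, is encoded by Eif1ax on the X chromosome, by Eif1a and by the unnamed copies. Eif1ax supplied nearly all of this mRNA, with 54.4 ± 5.28 FPKM. Eif1a (chromosome 18, 46597704 to 46610225, plus strand) received 0 reads in each of the 3 GFP High libraries, while RFP 1, 2 and 3 had 15, 17 and 1, respectively, GFP Low 1, 2 and 3 having 7, 10 and 8. The limit of detection, 3 counts per library, was 0.122 CPM on average in GFP High. The Eif1a means of GFP Low (0.344 CPM) and RFP (0.451 CPM) were 2.83-fold and 3.71-fold above that limit. RFP 3, with 1 read, was itself under 3 counts, so the RFP mean rests on RFP 1 and 2. Eif1a failed the low-count filter in both comparisons with GFP High. Without that filter edgeR gave unadjusted p = 0.0220 against RFP and 0.0490 against GFP Low, with adjusted p = 0.632 and 0.661.

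The 9 eIF1A copies lie together on chromosome 12 between 87494721 and 88324026, in the interval that also holds Oog1 and Gm2042. They received 373 reads in all 9 libraries together, and 3 of the 9 exceeded 3 counts in any library. Gm5039 received 10, 0 and 21 reads in GFP High 1, 2 and 3, against 37, 27 and 42 in RFP and 35, 46 and 81 in GFP Low. Its mean was 1.38 ± 0.188 CPM in RFP, 2.16 ± 0.661 in GFP Low and 0.434 ± 0.474 in GFP High (SD, n = 3), and the GFP High libraries lay below all others. The difference did not pass the test (log2 fold change -1.65, 95% interval -4.67 to 1.37, against RFP, and -2.30, -5.18 to 0.58, against GFP Low; edgeR adjusted p = 0.997 and 0.998). Gm5039 shared 17.3% of its 50-base words with other genes and Eif1a 4.05%, and each was the other's most frequent match. How reads were divided between Gm5039 and Eif1a was not tested, so their values may not be independent. Gm8332 was counted 28 times in GFP High 2 and 0 to 6 times in the others, and all of its 50-base words occur in other genes. Gm5662, Gm2075 and Gm21319 had 0 to 6 counts in any library.

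eIF2B recharges eIF2 with GTP. Among its 5 subunits, the alpha and delta subunits Eif2b1 (56.6 ± 4.59 FPKM) and Eif2b4 (44.3 ± 5.79) were highest and the catalytic epsilon subunit Eif2b5 (4.93 ± 1.26) lowest. Of the 4 kinases that shut off eIF2, Eif2ak1 (HRI, the haem-regulated kinase) had 44.3 ± 2.72 FPKM and Eif2ak4 (GCN2, which senses uncharged tRNA) 18.1 ± 1.43. Eif2ak3 (PERK, of the endoplasmic reticulum) and Eif2ak2 (PKR, which senses double-stranded RNA) had 1.5 ± 0.35 and 0.793 ± 0.23.

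The 14 genes of eIF3, the largest initiation complex, ran from Eif3g at 142.8 ± 12.8 FPKM and Eif3c at 112.3 ± 7.57 down to Eif3f at 3.47 ± 0.57. Eif3f was the lowest of the 14 in every library, at 7.38 to 12.6 CPM, and shared no 50-base word with another gene. Eif3j1 and Eif3j2 have identical aligned coding bases (100% of 783). Eif3j2 shared 91.8% of its 50-base words with other genes and was the most variable member at 20 CPM or more, with coefficients of variation of 52.5% in RFP, 33.5% in GFP Low and 58.9% in GFP High.

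The cap-binding group was led by Eif4e1b (chromosome 13, 54783998 to 54788459, plus strand), the oocyte homologue of eIF4E. Its CPM, scaled by TMM over all libraries, was 629.6, 602.7 and 666.1 in RFP 1, 2 and 3, against 623.9, 654.1 and 668.4 in GFP Low and 615.9, 610.7 and 678.0 in GFP High. All groups overlapped, and its log2 fold change was 0.02 (95% interval -0.16 to 0.20) for GFP High against RFP, 0.04 (-0.11 to 0.20) for GFP Low against RFP and -0.02 (-0.18 to 0.14) for GFP High against GFP Low. Canonical Eif4e had 22.9 ± 1.64 FPKM, so Eif4e1b held 92.4% of their summed FPKM. The next in this group were the helicase cofactor Eif4b (62.2 ± 4.24 FPKM) and Eif4a3 (61.6 ± 6.82), the exon junction helicase. Lowest by deposited FPKM, with its long deposited gene length, was Eif4e2 (7.61 ± 1.43), a cap-binding repressor. Of the proteins that hold eIF4E, Eif4enif1 (4E-T, which partners eIF4E in stored mRNA particles) had 160.2 ± 6.19 FPKM. The mTOR-regulated inhibitors Eif4ebp2 and Eif4ebp1 had 1.98 ± 0.38 and 0.915 ± 0.62.

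Eif6, which keeps the large subunit from joining early, had 160.1 ± 14.8 FPKM, and Eif5a, the factor that relieves stalled ribosomes, 69.5 ± 4.23. Among the 8 elongation genes, Eef1a1, the tRNA carrier, was followed by the translocase Eef2 at 104.6 ± 7.31 FPKM. The exchange factor eEF1B was uneven, with Eef1b2 at 44.0 ± 4.52 FPKM, Eef1d at 36.1 ± 5.16 and Eef1g at 2.75 ± 0.74. Eef1g shared 64.3% of its 50-base words with other genes, and the 6 pseudogene rows annotated as the same protein summed to 2.43 to 9.90 CPM per library beside 4.8 to 11 CPM for Eef1g itself. With these rows included the total was 8.68 to 17.8 CPM, still below Eef1b2 (99.3 to 128.0 CPM). Eef1a2, the neuronal and muscle form, had 4 reads in all. Of the 6 enzymes that modify elongation factors, the eEF2 kinase Eef2k had 33.8 ± 3.46 FPKM and the 5 methyltransferases at most 2.65 FPKM (Eef1akmt4), with Eef1akmt3 counted 3 times in GFP High 1 and 0 times elsewhere.

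The balance between paralogs was compared over the 3 groups for 7 pairs, as the share of the first gene in the summed FPKM of the pair. Of the Eif4e pair, Eif4e1b made up 92.1% ± 0.466 in RFP, 92.2% ± 0.279 in GFP Low and 93.0% ± 0.697 in GFP High (SD, n = 3). Values below are in the order GFP High, GFP Low, RFP. Eif1b made up 88.4% ± 0.888, 88.2% ± 0.984 and 88.3% ± 1.57 of its pair with Eif1. Eif4a2 made up 19.7% ± 2.32, 14.8% ± 1.60 and 19.4% ± 2.31 of its pair with the main helicase Eif4a1, and the GFP Low libraries (16.0, 15.3 and 13.0%) lay below all others. Eif4a1 shared 65.3% of its 50-base words with other genes. Its 5 pseudogene rows were lowest in GFP Low (62.8 to 77.2 CPM, against 91.9 to 106.0 in GFP High and 79.8 to 107.2 in RFP). Eif4a1 itself had its highest group mean in GFP Low. Gene and pseudogene rows together overlapped, at 298.2 to 332.1 CPM in GFP Low, 283.0 to 311.0 in GFP High and 292.0 to 313.1 in RFP. The share of Eif4a2 with the pseudogene rows included was not tested. The scaffold Eif4g2 made up 30.2% ± 3.76, 32.3% ± 0.615 and 32.7% ± 1.67 of its pair with Eif4g1. Eif5a2 (0.692% of its pair with Eif5a on average), Eif1a (0.175% of its pair with Eif1ax) and Eef1a2 (0.00315% of its pair with Eef1a1) were minor everywhere. No pair passed an exact permutation test on the F statistic over the 3 groups, which has no direction. The smallest p was 0.0714, for Eif4a2, with an adjusted p of 0.333 over the 7 pairs. Eif1a alone passed when RFP 3, the RFP library with 1 Eif1a read, was left out (adjusted permutation p = 0.025).

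**Figure D2:**
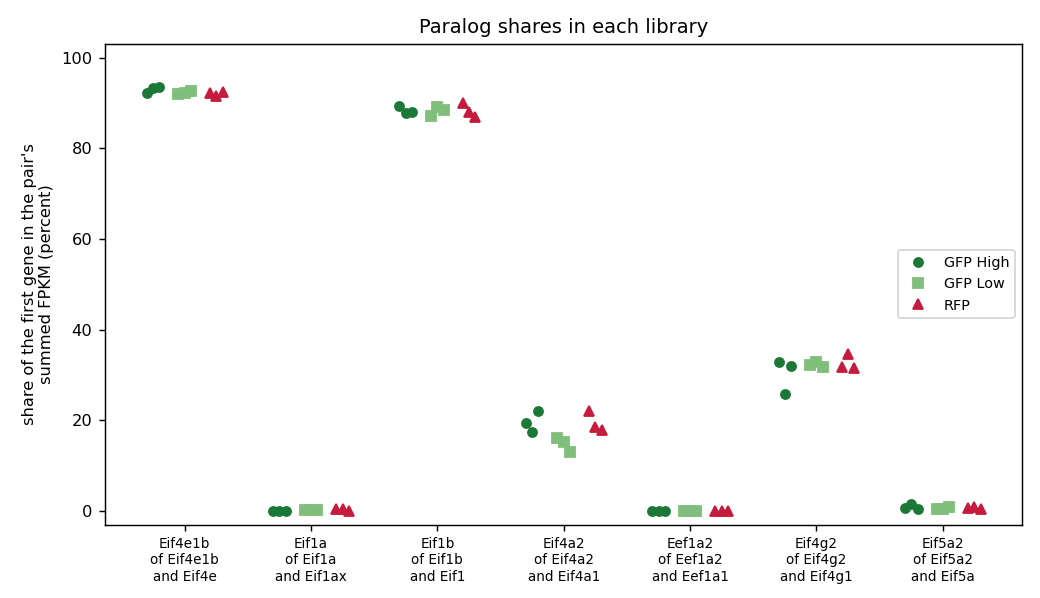
Share of the first gene in the summed FPKM of each paralog pair (percent), 1 point per library, coloured by group. Eif4e1b stays between 91.6% and 93.5% and Eif1b between 86.9% and 90.0% in the 9 libraries.

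GFP High was compared with RFP to ask whether eggs picked for bright GFP differ in these mRNAs from eggs picked as RFP. No member was called. Of the 64 members that passed the low-count filter, 0 had an adjusted p under 0.05 in edgeR's quasi-likelihood test, where 0.0135% of all 14829 genes tested did. An unadjusted p under 0.05 was found for 3 members (4.69%), against 4.09% of all genes. DESeq2 gave 0 calls and 5 such members (7.69% of members with an adjusted p, against at most 7.61% of genes). The groups did not overlap for 9 members (14.1%), against 12.1% of all genes: 3 were higher in GFP High (4.69%, against 4.6%) and 6 lower (9.38%, against 7.49%). These shares are near the background. The median log2 fold change was 0.01 over the members and -0.01 over all genes, and the 95% interval stayed within a factor of 2 for 54 of the 64 (84.4%), against 50.3% of all genes. The 10 with wider intervals were low or, as Eif3j2, variable genes. These interval shares were not matched for level. The median member lay far above the median protein-coding gene listed (21.8 against 0.835 FPKM).

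The smallest p in this comparison belonged to Eif2s3x (X chromosome, 94188707 to 94212862, minus strand). GFP High 1, 2 and 3 held 67.3, 64.4 and 66.3 CPM of it, against 86.3, 83.0 and 95.2 in RFP and 82.0, 91.0 and 88.6 in GFP Low, so the GFP High libraries were the lowest 3. The log2 fold change against RFP was -0.40 (SE 0.12, unadjusted p = 0.0065, edgeR adjusted p = 0.997). The authors' deposited table gives -0.39 with an adjusted p of 0.221. Eif2s3x shared 36.2% of its 50-base words with other genes, and its 2 pseudogene rows moved the other way, with 18.7, 21.4 and 13.3 CPM in GFP High against 6.77, 5.71 and 8.46 in RFP and 6.83, 5.37 and 8.89 in GFP Low. Gene and pseudogenes together had 79.6 to 85.9 CPM in GFP High, 88.7 to 103.7 in RFP and 88.8 to 97.4 in GFP Low. How reads were divided between these rows was not tested.

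Eif1ax had 306.8, 335.7 and 292.9 CPM in GFP High against 259.6, 280.9 and 262.1 in RFP, with GFP Low at 264.2, 285.8 and 314.4. GFP High lay above RFP in each library and overlapped GFP Low, and, beside a median of 0.16 for the oocyte markers, the log2 fold change against RFP was 0.24 (SE 0.09, unadjusted p = 0.0291, edgeR adjusted p = 0.997). Eif1ad, which carries an eIF1A-like domain, had 47.3, 41.8 and 39.9 CPM in GFP High, above the 34.0 to 36.3 CPM of the other 6 libraries (log2 fold change 0.29, 95% interval -0.04 to 0.61, against RFP). Eif3i, a core eIF3 subunit, had 116.1, 117.8 and 94.7 CPM in GFP High against 97.1, 91.4 and 78.7 in RFP, which overlapped (log2 fold change 0.31, unadjusted p = 0.0427). Eif3j1 had 83.3, 120.8 and 106.7 CPM in GFP High against 127.2 to 148.1 in the other 6. Its sum with Eif3j2 also separated, at 124.1 to 136.6 CPM in GFP High and 142.8 to 176.3 elsewhere. The 5 smallest p-values ended with Eif4g2, at 161.4 ± 5.15 CPM in RFP and 133.8 ± 16.5 in GFP High (SD, n = 3; log2 fold change -0.25, unadjusted p = 0.0544).

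**Figure D3:**
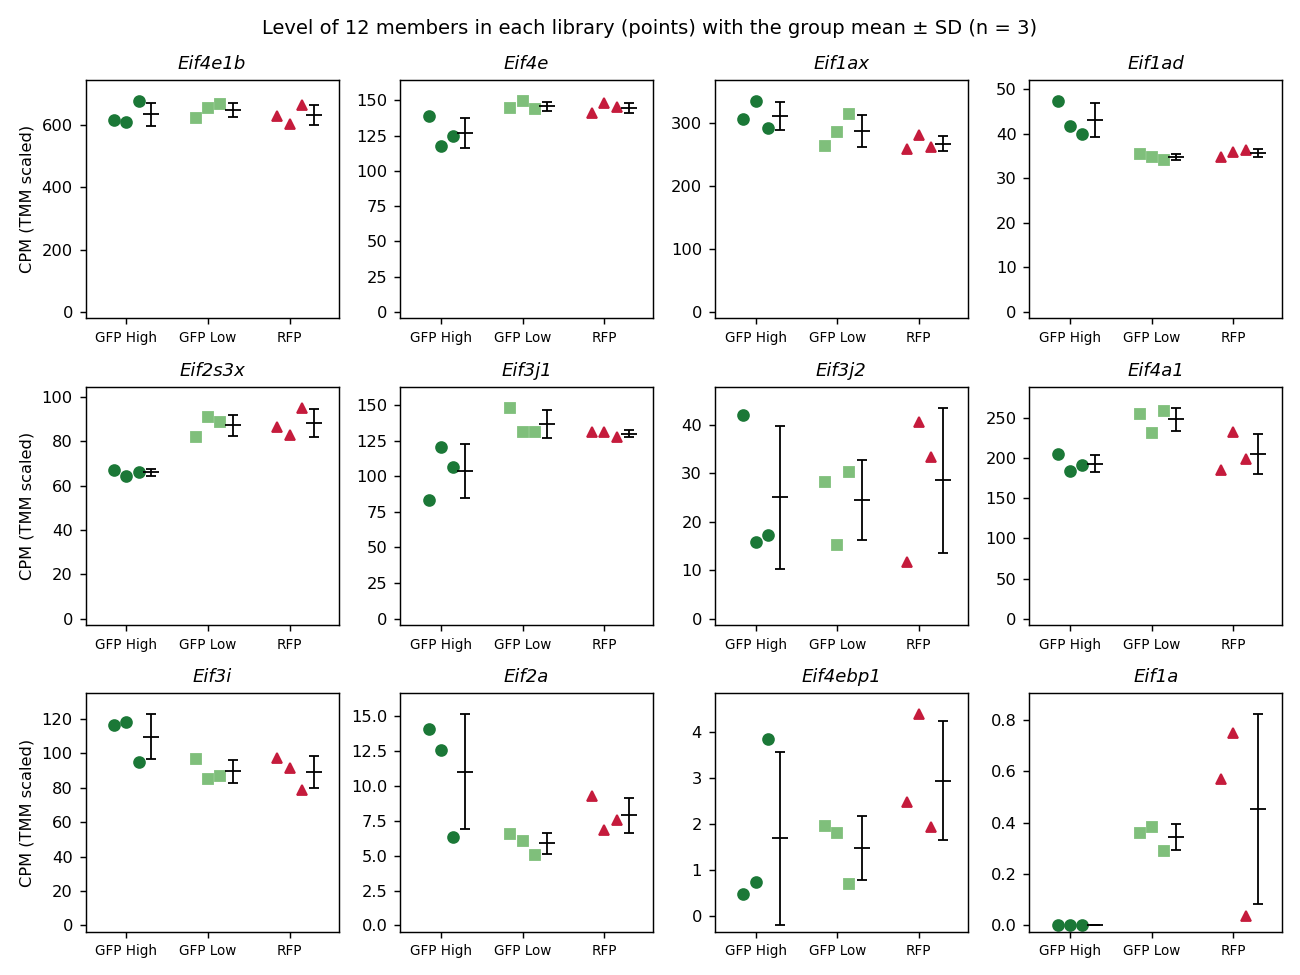
CPM (TMM scaled over the 9 libraries) of 12 members, 1 point per library, with the mean ± SD of each group (n = 3). Eif2s3x in GFP High (64.4 to 67.3 CPM) lies below the other 6 libraries and Eif1ad (39.9 to 47.3 CPM) above them, while Eif4e1b overlaps between all groups.

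GFP Low was compared with RFP in the same way for eggs with a weaker GFP signal. Again no member passed: 0 of 65 were called, against 0.0197% of 15199 genes. In edgeR 1 member had an unadjusted p under 0.05 (1.54% against 2.62%). DESeq2 gave 0 calls and 2 such members (3.08%, against at most 3.89% of genes). The groups did not overlap for 3 members (4.62% against 7.72%). Eif6 and Eef2kmt were higher in GFP Low (3.08% against 3.5%) and Eif2a lower (1.54% against 4.22%). The interval stayed within a factor of 2 for 59 of 65 members (90.8%, against 65.7% of all genes, not matched for level). The smallest p was that of Eif4a1, with 254.9, 232.1 and 259.0 CPM in GFP Low against 184.8, 233.4 and 199.6 in RFP, where RFP 2 overlapped GFP Low (log2 fold change 0.28, SE 0.10, unadjusted p = 0.0142, edgeR adjusted p = 1.00). The next smallest p-values of edgeR (unadjusted, 0.0554 to 0.0887) belonged to 4 members. Eif6 had 410.4 ± 11.8 CPM in RFP and 456.2 ± 26.9 in GFP Low (SD over 3 libraries, as for the next 3). Eif2b5 had 14.7 ± 1.89 and 11.2 ± 2.22, Eif2a 7.88 ± 1.23 and 5.87 ± 0.77, and Eif4ebp1 2.93 ± 1.29 and 1.48 ± 0.692.

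The last comparison set the brighter GFP High eggs against GFP Low eggs. This comparison shares its libraries with the other comparisons. None of 64 members was called, as was none of 14785 genes (0%). In edgeR 5 members had an unadjusted p under 0.05 (7.81% against 3.77%). DESeq2 gave 0 calls and 7 such members (10.8%, against at most 5.99% of genes). The groups did not overlap for 6 members (9.38% against 11.7%), with 1 higher in GFP High (1.56% against 4.49%) and 5 lower (7.81% against 7.22%). Intervals stayed within a factor of 2 for 56 of 64 (87.5%, against 50.3% of all genes, not matched for level). Eif4a1, at 205.0, 184.0 and 191.0 CPM in GFP High, lay below all GFP Low libraries (log2 fold change -0.35, SE 0.09, unadjusted p = 0.00281, edgeR adjusted p = 0.998). Its 5 pseudogene rows summed to 107.2, 79.8 and 93.1 CPM in RFP, 77.2, 66.1 and 62.8 in GFP Low, and 106.0, 105.9 and 91.9 in GFP High. With them included, GFP High had 283.0 to 311.0 CPM and GFP Low 298.2 to 332.1, which overlapped. Eif4a1 shared 65.3% of its 50-base words with other genes, and how reads were divided was not tested.

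The other 4 members with an unadjusted p under 0.05 in this comparison were Eif2s3x (log2 fold change -0.39), Eif3j1 (-0.39), Eif3i (0.30) and Eif2a (0.92, 95% interval 0.11 to 1.72). Eif2a had 14.1, 12.6 and 6.35 CPM in GFP High against 6.52, 6.06 and 5.02 in GFP Low, and GFP High 3 lay within the GFP Low range.

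**Figure D4:**
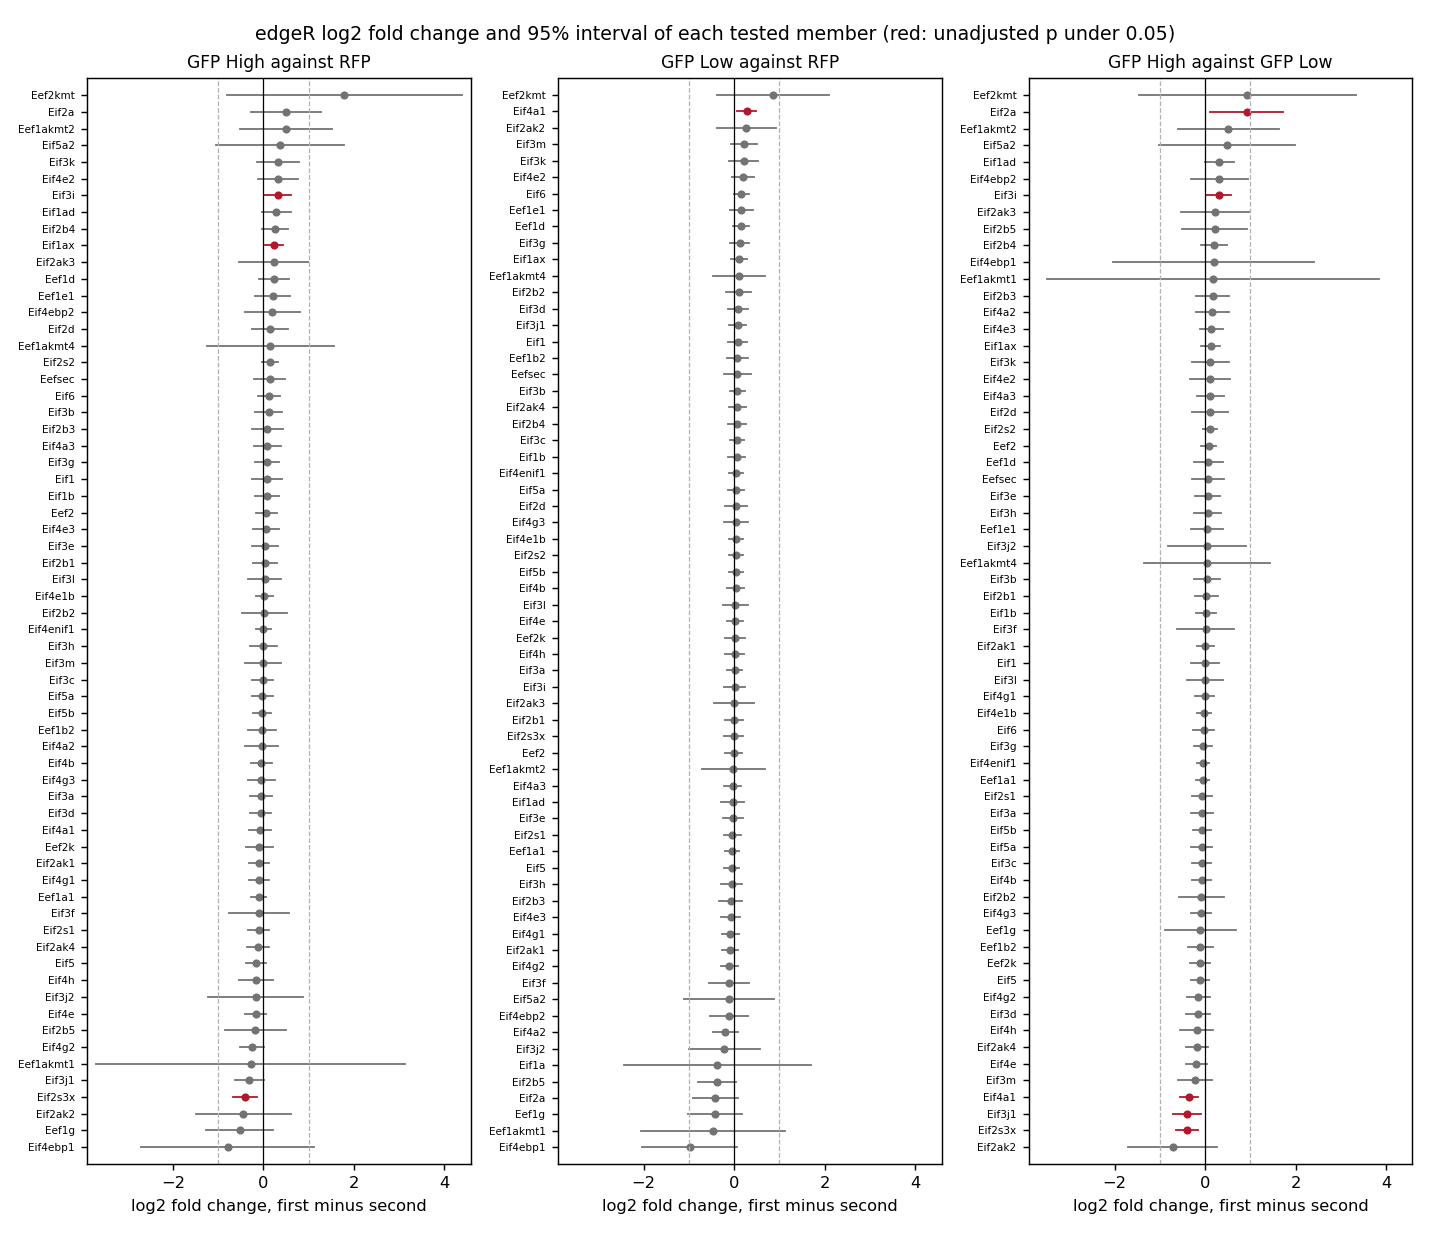
Log2 fold change (first group minus second) with its 95% interval for each member tested in each of the 3 comparisons, sorted by size, with unadjusted p under 0.05 in red and dashed lines at a factor of 2. There are 3, 1 and 5 red members from left to right, and most intervals lie between the dashed lines.

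Each of the 9 roles had 0 called members in each of the 3 comparisons. For GFP High against RFP the median log2 fold change was 0.08 for start codon and ternary complex factors (11 tested), -0.00 for eIF3 (14), -0.05 for cap, scaffold and helicase factors (12), 0.03 for eIF2B (5), -0.10 for the eIF2 kinases (4) and 0.07 for elongation factors (7). It was 0.15 for the elongation factor modifiers (5), 0.13 for eIF5A and eIF6 (3) and 0.00 for the eIF4E-binding proteins (3). Summed over the members, CPM came to 11684 ± 105 in RFP, 11884 ± 119 in GFP Low and 11625 ± 246 in GFP High (SD, n = 3).

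The spread between replicates was wider in GFP High. Over the 51 members at 20 CPM or more, the median coefficient of variation was 5.94% in RFP, 6.95% in GFP Low and 11.8% in GFP High, against 8.71%, 7.39% and 13.3% for all 6063 genes at that level. Eif2s3x (2.20%), Eef1a1 (2.82%) and Eif4enif1 (2.97%) varied least in GFP High. Eif3j2, Eif2b2 (29.1%, with 27.9, 38.2 and 21.3 CPM) and Eif4e2 (26.9%, with 72.3, 73.4 and 43.5 CPM) varied most.

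Among 35 other genes of translation control, including poly(A)-binding proteins, release factors and the mTOR pathway, 0 were called in each comparison and 0 had an unadjusted p under 0.05. The smallest p-values belonged to 3 genes. Ppp1r15a, which directs dephosphorylation of eIF2, had 97.7 CPM in GFP High and 84.1 in RFP (edgeR unadjusted p = 0.0683, adjusted p = 0.997). Paip2b, an inhibitor of poly(A)-binding protein, had 1118 CPM in GFP Low and 1027 in RFP (edgeR unadjusted p = 0.0810, adjusted p = 1.00). The eIF4E kinase Mknk2 stood at 3.92 CPM in GFP Low, against 1.68 in GFP High (edgeR unadjusted p = 0.0854, adjusted p = 0.998). Per length, the embryonic form Pabpc1l had 65.4 ± 8.15 FPKM and Pabpc1, the somatic poly(A)-binding protein, 2.07 ± 0.43.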

How the data were processed

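The authors deposited 1 table for each pair of groups, with raw read counts, a normalised signal, FPKM, log2 fold changes and p-values per gene, per the file headers. The submitters' processing notes name fastp, HISAT2 2.0.5, featureCounts 1.5.0-p3, DESeq2 1.20.0 and the build mm10, without their roles. Whether counting used strand is not given in the sources used here. The deposited normalised signal entered no test. Counts were joined by gene identifier over 9 libraries, with 0 for 178 genes missing from a table. At the smallest total, 1 CPM rests on 19.4 reads, and limits from counts cover counting error only, since reads carry no molecular identifiers.

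Each pair of groups was fitted on its 6 libraries with edgeR 4.0.16 (R 4.3.3), using filterByExpr, TMM and the quasi-likelihood test with Benjamini-Hochberg adjustment over all genes tested, which was checked on simulated data. Levels between groups are CPM scaled by TMM over 9 libraries, and levels between genes are the authors' deposited FPKM. All 67 members were found in GENCODE M21, 64 with the same coordinates. Members and gene lists were chosen with earlier results of these data known. Named were the paralog pairs, the eIF1A genes, the 5 smallest p-values of each comparison, the 2 highest and the lowest of each role, members that failed a filter, the 3 most and least variable, the 5 highest eIF1A copies and the 3 smallest p-values among other translation genes. Others, named after their values were seen, complete a complex or role, or carry a CPEB1 element. The alternatives were DESeq2 1.42.0, its size factors, limma-voom (limma 3.58.1), no filter, all libraries in 1 fit, protein-coding genes only, a replicate block, each library left out and, chosen after seeing the data, bias-adjusted deviances.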

Additional observations from a re-analysis of the deposited data

How the results depend on the processing

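In all 3 comparisons, 0 members were called under each of the 14 alternatives run, which includes leaving out each library and the replicate block (0 members called with the block in each comparison). Same-numbered libraries deviated from their group means with correlations between -0.149 and 0.147, so the numbers were not treated as pairs. The number of members with an unadjusted p under 0.05 depended on single libraries. For GFP High against RFP it was 8, 5 and 12 without GFP High 1, 2 and 3 and 2, 3 and 2 without RFP 1, 2 and 3, against 3 with all libraries. As shares of members tested these were 12.3%, 7.69% and 18.5% without GFP High 1, 2 and 3, against 9.78%, 6.39% and 11.1% of all genes. Without RFP 1, 2 and 3 they were 3.125%, 4.69% and 3.08%, against 1.85%, 2.74% and 2.02%. For GFP Low against RFP the number was 4, 4 and 5 without GFP Low 1, RFP 2 and RFP 3, and 1 otherwise. The shares were 6.15%, 6.15% and 7.69%, against 4.44%, 3.19% and 3.64% of all genes, and otherwise 1.54% against 2.37% to 2.82%. For GFP High against GFP Low the number was 8 and 9 without GFP High 1 and 3, 5 without GFP High 2, and 3 without any one of the GFP Low libraries, against 5. The shares were 12.5% and 14.1% without GFP High 1 and 3, against 9.33% and 10.2% of all genes. Without GFP High 2 the share was 7.81% against 5.69%, and without a GFP Low library 4.69% against 1.77% to 2.23%. The paralog share of Eif1a with Eif1ax had adjusted permutation p values from 0.025 (without RFP 3) to 0.65 (without GFP High 2) when 1 library was left out. The adjusted p of each of the other 6 pairs stayed above 0.05 under all alternatives run. The mean number of members detected moved by less than 1.5 times with another detection threshold. The printed fold changes of Eif2s3x kept their sign under all alternatives in both comparisons with GFP High. The estimate of Eif4e1b, close to 0, changed sign in 2 alternatives for GFP High against RFP and in 1 for GFP High against GFP Low. Depth limits Eef1a2, Eef1akmt3 and 7 of the 9 eIF1A copies, which had at most 6 reads in any library, and Eif1a, which had at most 17.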
